A study of Mus musculus with 6 samples.

Results

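The genes described here are 43 genes that mark regions of the mouse forebrain or layers of its cortex, chosen by symbol out of 23282 entries in the deposited count tables. They were grouped by the region they are best known for: 8 genes of upper cortical layers, 9 of deep cortical layers, 6 of pallial neurons in general, 4 of the hippocampus, 6 of the thalamus, 7 of the basal forebrain and 3 of the hypothalamus. Male wild-type C57BL/6J mice, 8 to 10 weeks old, received either normal chow (NCD) or, over 10 days, a diet with 60 kcal% of fat (HFD). The olfactory bulbs and cerebellum were taken off, the forebrain was divided into hemispheres, and hemisphere RNA was sequenced from 3 libraries per diet. Genotype, sex and strain are shared by both diets. The labels do not say that each library came from a separate mouse, so p-values measure only the spread between these libraries. The question asked of these genes was what tissue each library holds and whether their levels differed between the diets.

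The forebrain is patterned in development by transcription factors, many of which remain expressed in the adult neurons they helped to specify. In the cortex, projection neurons of different layers keep different sets of such factors, and those of the thalamus, striatum, septum and hypothalamus keep others. In RNA of a whole hemisphere, the level of a regional gene therefore depends both on how much of that region was in the sample and on how strongly its cells express the gene, and fewer cells of a type cannot be told apart from less RNA per cell. Many of the members are also expressed outside the region given here. Bcl11b, for example, is also a factor of striatal neurons, Zbtb20 is also expressed in astrocytes and Ebf1 in mural cells.

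Levels are given as CPM, the read count relative to the TMM-normalized size of its library. QuantSeq reads come from the 3′ end of a transcript, so CPM counts transcripts and is not divided by gene length. The total count ranged from 6842785 to 9689372 per library, and 3 counts, taken as the floor, correspond to 0.316 to 0.432 CPM and cover counting error only. Of the 43 members, 42 had a count and 40 passed the count filter of edgeR and were tested among 13771 genes. The 40 tested had a median of 511.75 counts per library, against 182.5 over all genes tested. HFD replicate 3 stood apart from the rest. It held 1265 summed CPM of 7 anterior pituitary genes, among them Gh, which encodes growth hormone, and Prl, which encodes prolactin, while the other libraries held between 2.08 and 8.95 CPM.

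**Figure D1:**
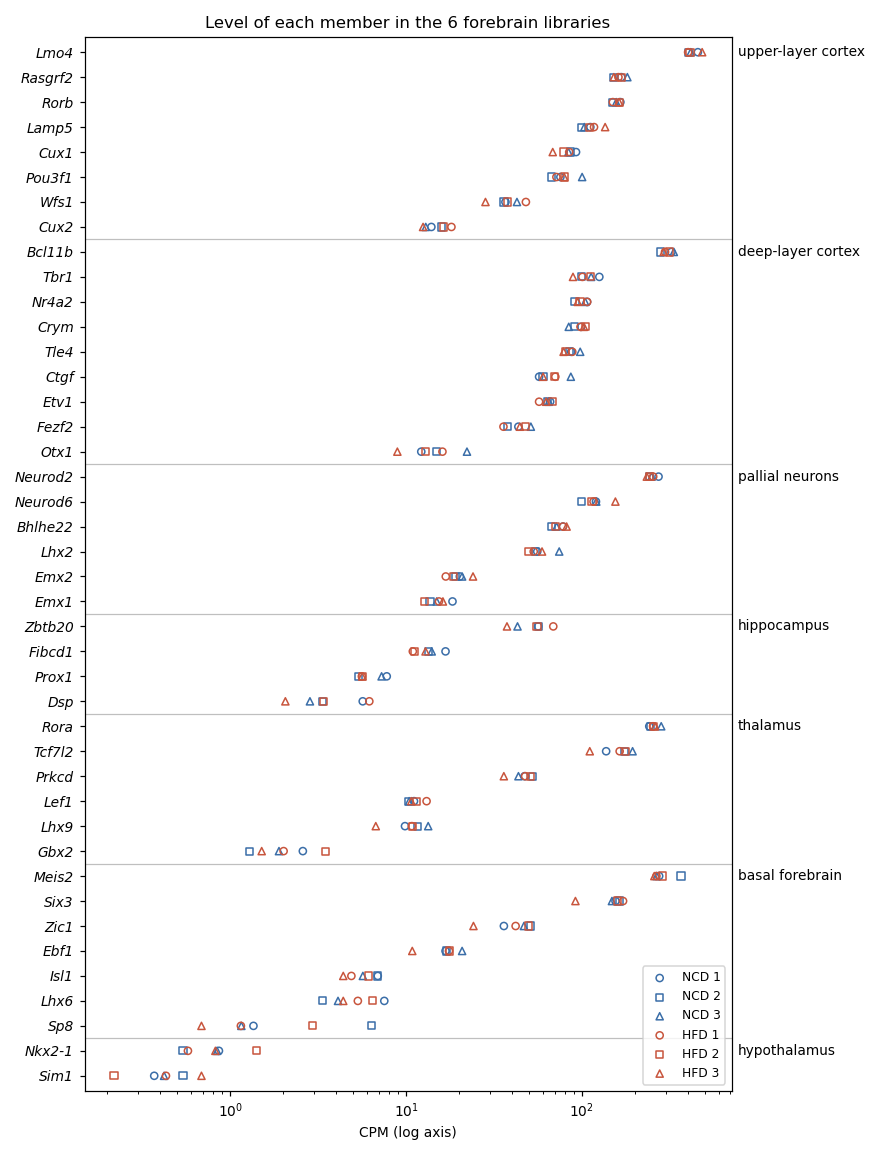
CPM (log axis) of the 42 members with a count, by region, in NCD replicates 1 to 3 (blue) and HFD replicates 1 to 3 (red), each point 1 library; Otp, listed at 0 in all 6 libraries, is not drawn. Lmo4 lies highest, between 402 and 483 CPM, and Sim1 lowest, between 0.219 and 0.687 CPM, and for most members the points of the diets lie among each other.

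The deposited tables hold no sequence, so promoter sequence of 4 members was taken from RefSeq (GRCm38.p6). The 4 are the paralogs Neurod2 and Neurod6, whose levels moved differently among libraries, and Six3 and Zic1, which were both lowest in HFD replicate 3. Each line runs 5′ to 3′ on the gene's strand, from 200 to 51 bases before a start in RefSeq. For Six3 that start lies inside the gene as GENCODE draws it, so its window is downstream of an earlier GENCODE start, though outside the gene's exons. Capitals mark CANNTG, the general E-box motif. Factors of the Neurod family bind some forms of it, and a marked stretch does not show which factor binds there.
Neurod2 (chr11:98329696-98329845, minus strand): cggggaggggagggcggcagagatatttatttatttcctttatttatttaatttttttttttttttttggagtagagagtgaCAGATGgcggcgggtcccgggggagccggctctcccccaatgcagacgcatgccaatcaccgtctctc
Neurod6 (chr6:55681314-55681463, minus strand): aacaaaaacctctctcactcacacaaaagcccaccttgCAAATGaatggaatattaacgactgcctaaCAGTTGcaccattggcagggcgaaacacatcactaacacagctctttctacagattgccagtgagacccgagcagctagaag
Six3 (chr17:85620634-85620783, plus strand): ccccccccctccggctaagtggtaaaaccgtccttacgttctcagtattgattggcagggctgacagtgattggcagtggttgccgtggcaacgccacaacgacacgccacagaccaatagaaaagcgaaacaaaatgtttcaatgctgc
Zic1 (chr9:91365819-91365968, minus strand): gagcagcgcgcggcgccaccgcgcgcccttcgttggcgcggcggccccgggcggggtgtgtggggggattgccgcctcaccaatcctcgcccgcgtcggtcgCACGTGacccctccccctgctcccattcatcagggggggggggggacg

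RefSeq start sites were found for 38 of the 43 members, all but Bhlhe22, Ctgf, Pou3f1, Crym and Otx1, with 57 windows of 250 bases before a start. A ratio of observed to expected CpG above 0.6, a common mark of CpG island promoters, was found in 64.9% of the members' windows and in 34% of all 32851 windows in the table. By region the share was 83.3% of 6 windows for the pallial genes and 45.5% of 11 windows for the thalamic genes. A gene with several starts enters once per start, and the 11 thalamic windows come from 6 genes. Those of Lef1 alone had ratios of 0.40, 0.51, 0.37 and 0.40, all below 0.6. The median GC content was 61.2% for the members and 52.4% for all windows. CANNTG, which reads the same on both strands, was present in 59.6% of the members' windows and 66.2% of all windows. TAATTA, a core motif of homeodomain factors that also reads the same on both strands, was present in 3.51% and 4.84%. The members' promoters were therefore richer in CpG than the whole table and held these motifs at shares near those of all windows. The data bear on transcript levels only, and no binding was measured.

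The 8 upper-layer genes had similar levels in all libraries. Lmo4, a LIM-only cofactor of cortical projection neurons (chromosome 3, 144188530 to 144205220 of GRCm38, minus strand), had 457, 406 and 416 CPM in NCD replicates 1, 2 and 3 and 402, 412 and 483 CPM in HFD replicates 1, 2 and 3, the order kept below. Rasgrf2, a Ras exchange factor used to mark layers 2 and 3 (chromosome 13, 91880400 to 92131656, minus strand), had 168, 152 and 182 CPM on the NCD and 162, 168 and 152 CPM on the HFD. In both genes the diets overlapped, and the highest library stood no more than 1.20 times above the lowest. Rorb, the nuclear receptor of layer 4 neurons, ranged over the 6 libraries from 149.6 to 166 CPM, a ratio of 1.11, the smallest of all tested members. Cux1 and Cux2, paired homeobox factors of upper-layer neurons, ranged from 68.3 to 92.7 CPM and from 12.5 to 18.1 CPM, both with their lowest value in HFD replicate 3. Lamp5, a membrane protein of upper-layer neurons and of some interneurons, went the other way, with 112, 99.7 and 103 CPM on the NCD and 117, 110.5 and 136 CPM on the HFD, highest in HFD replicate 3. Pou3f1, a POU factor, ranged from 67 to 100.4 CPM, highest in NCD replicate 3.

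Wfs1 varied most of the upper-layer genes. It encodes wolframin, a protein of the endoplasmic reticulum that is abundant in upper-layer neurons and in CA1 of the hippocampus (chromosome 5, 36966104 to 36989205, minus strand). Its values were 36.8, 36.1 and 42.8 CPM on the NCD and 48.1, 37.8 and 28.3 CPM on the HFD. The highest and the lowest library were both on the HFD, so the NCD libraries lay within the range of the HFD libraries. The within-diet SD was 0.28 on the log2 scale, against a median of 0.12 over the upper-layer genes and 0.20 over all genes tested.

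Among the 9 deep-layer genes, Bcl11b, the zinc finger factor of layer 5 neurons that project out of the cortex (chromosome 12, 107910403 to 108003602, minus strand), was the most abundant. It had 323, 279 and 334 CPM on the NCD and 297, 317 and 292 CPM on the HFD. Tbr1, a T-box factor of layer 6 (chromosome 2, 61802930 to 61814114, plus strand), had 126, 100.1 and 113 CPM on the NCD and 101, 112 and 89.1 CPM on the HFD. Both overlapped between the diets, with NCD replicate 2 lowest for Bcl11b and HFD replicate 3 lowest for Tbr1. Otx1, a homeobox factor of layers 5 and 6 (chromosome 11, 21994764 to 22002897, minus strand), was the most variable deep-layer gene, with 12.2, 14.9 and 22.2 CPM on the NCD and 16.1, 12.9 and 8.94 CPM on the HFD. Its highest value was in NCD replicate 3 and its lowest in HFD replicate 3, a ratio of 2.49, while the other 4 libraries lay between 12.2 and 16.1 CPM.

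The remaining deep-layer genes were within a ratio of 1.52 between libraries. Fezf2, which specifies layer 5 neurons that project below the cortex, ranged from 35.8 to 51.3 CPM, and Etv1, an ETS factor of layer 5, from 57.1 to 68.3 CPM. Tle4, a corepressor of corticothalamic neurons, ranged from 78.8 to 97.9 CPM. Nr4a2, an orphan nuclear receptor of the claustrum and the deepest layer, ranged from 91.5 to 107 CPM. Crym, a thyroid hormone binding protein, had 99.1, 90.6 and 84.3 CPM on the NCD and 98.3, 105 and 103 CPM on the HFD, and only the lowest HFD library fell within the NCD range. Ctgf, annotated as Ccn2 in GENCODE and a marker of layer 6b, ranged from 57.2 to 86.6 CPM and was highest in NCD replicate 3. In 5 of the 9 deep-layer genes NCD replicate 3 was the highest library, and in 3 of the 9 HFD replicate 3 was the lowest.

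The 6 genes of pallial neurons include paralogous factors that did not move together. Neurod2 and Neurod6 are bHLH factors of glutamatergic neurons in the cortex and hippocampus. For Neurod2 (chromosome 11, 98325415 to 98329648, minus strand) the values were 273, 243 and 249 CPM on the NCD and 255, 244 and 234 CPM on the HFD. For Neurod6 (chromosome 6, 55677822 to 55681263, minus strand) they were 120.3, 99.1 and 121 CPM on the NCD and 117, 114 and 155 CPM on the HFD. HFD replicate 3 was thus the lowest library for Neurod2 and the highest for Neurod6, and without it the log2 fold change of Neurod6 fell from 0.18 to 0.02. The homeobox genes Emx1 and Emx2, which pattern the pallium, ranged from 12.8 to 18.4 CPM and from 16.8 to 24.1 CPM. Lhx2, a LIM homeobox selector of cortical identity, ranged from 49.9 to 74.4 CPM, highest in NCD replicate 3, and Bhlhe22, a bHLH factor, from 67.1 to 81.9 CPM. Emx2 shares exon sequence with Emx2os on the other strand, and since the strand used in counting is not given, reads of the pair cannot be told apart.

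Among the 4 hippocampal genes, Fibcd1 was the only 1 of the 40 tested members whose diets did not overlap. It encodes a chitin-binding membrane protein used as a marker of CA1 neurons (chromosome 2, 31813290 to 31846005, minus strand). The NCD libraries had 16.8, 13.4 and 14 CPM and the HFD libraries 10.9, 11.1 and 12.9 CPM. Every HFD library thus lay below every NCD library. Over all genes tested, the diets did not overlap in 8.81%, with the HFD lower in 4.49%, and 1 of 40 members is 2.5%. The log2 fold change of Fibcd1 was -0.33 with a standard error of 0.18 and a 95% interval from -0.71 to 0.04. By edgeR the unadjusted p was 0.0763 and the Benjamini-Hochberg adjusted p = 0.979.

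Zbtb20, a zinc finger repressor of hippocampal neurons and astrocytes (chromosome 16, 42875881 to 43642602, plus strand), had 56.4, 56.8 and 43.1 CPM on the NCD and 68.8, 55.6 and 37.5 CPM on the HFD. Dsp, which encodes desmoplakin and marks granule cells of the dentate gyrus (chromosome 13, 38151294 to 38198577, plus strand), had 5.68, 3.34 and 2.84 CPM on the NCD and 6.19, 3.39 and 2.06 CPM on the HFD. In both genes HFD replicate 1 was highest and HFD replicate 3 lowest, and the NCD libraries lay between them. Prox1, the homeobox factor of dentate granule cells, ranged from 5.39 to 7.78 CPM and was highest in NCD replicate 1. Exons of Gm9968 and Mir568 overlap Zbtb20, Gm10129 overlaps Dsp and Prox1os overlaps Prox1, which leaves part of their counts uncertain. The same limit holds for Cux1 (Gm16599), Pou3f1 (Gm2164), Ctgf (Gm15270), Rora (Gm15511) and Lef1 (Gm43352), each overlapped on the other strand. Dsp and Prox1 rest on 15 to 69 counts per library.

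In the thalamic group, Rora was the steadiest and Tcf7l2 moved most among the abundant genes. Rora encodes a retinoid-related orphan receptor (chromosome 9, 68653786 to 69388246, plus strand) and had 242, 246 and 283 CPM on the NCD and 254, 254 and 261 CPM on the HFD. Tcf7l2, a Wnt effector that is strongly expressed by thalamic neurons (chromosome 19, 55741820 to 55933654, plus strand), had 138, 176 and 194 CPM on the NCD and 164, 178 and 111 CPM on the HFD. HFD replicate 3 was the lowest library for Tcf7l2, followed by NCD replicate 1, and the other 4 libraries lay between 164 and 194 CPM. Lhx9, a LIM homeobox factor of the caudal thalamus, had 9.87, 11.6 and 13.4 CPM on the NCD and 10.8, 10.9 and 6.74 CPM on the HFD. Prkcd, a protein kinase C isoform abundant in thalamic relay neurons, had 47.3, 52.5 and 43.6 CPM on the NCD and 47.6, 51 and 36 CPM on the HFD. HFD replicate 3 was thus the lowest library for Tcf7l2, Lhx9 and Prkcd. Lef1, another Wnt effector, ranged from 10.4 to 13.1 CPM.

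Gbx2, a homeobox factor needed for thalamic development (chromosome 1, 89927956 to 89931179, minus strand), was the scarcest thalamic gene. Its counts were 21, 12 and 18 on the NCD, against 14, 32 and 11 on the HFD, or between 1.29 and 3.5 CPM. The highest value was in HFD replicate 2 and the lowest in NCD replicate 2. An exon of D130058E05Rik overlaps Gbx2 on the other strand.

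The 7 basal forebrain genes had the largest differences between libraries. Meis2, a TALE homeobox factor of the striatum and its precursors (chromosome 2, 115863064 to 116065839, minus strand), had 275, 366 and 266 CPM on the NCD and 266, 288 and 258 CPM on the HFD. Six3, a homeobox factor of striatal neurons (chromosome 17, 85613608 to 85629302, plus strand), had 155, 163 and 148 CPM on the NCD and 172, 159.9 and 92 CPM on the HFD. Meis2 stood out as high in NCD replicate 2, and Six3 as low in HFD replicate 3, the other 5 libraries of Six3 lying between 148 and 172 CPM. Zic1, a zinc finger factor of the septum, had 36, 51.2 and 46.9 CPM on the NCD and 42, 49.8 and 24.2 CPM on the HFD. Ebf1, a factor of striatal projection neurons, had 16.8, 16.9 and 20.9 CPM on the NCD and 17.6, 17.7 and 10.9 CPM on the HFD. Zic1 and Ebf1 were both lowest in HFD replicate 3, like Six3. Six3 overlaps Six3os1 and Gm28528 and Zic1 overlaps Zic4, each on the other strand, so that reads of these partners may be in their counts.

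Isl1, the LIM homeobox factor of striatonigral and cholinergic neurons, ranged from 4.4 to 6.91 CPM, and Lhx6, the factor of interneurons born in the medial ganglionic eminence, from 3.34 to 7.53 CPM. In 6 of the 7 basal forebrain genes HFD replicate 3 was the lowest library. The exception was Lhx6, which was lowest in NCD replicate 2 and overlaps Gm27953 on the same strand.

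Sp8 had the widest range of all tested members. It encodes a zinc finger factor of interneurons bound for the olfactory bulb (chromosome 12, 118846329 to 118852576, plus strand). Its counts were 11, 59 and 11 on the NCD, against 8, 27 and 5 on the HFD, or 1.36, 6.36 and 1.16 CPM and 1.15, 2.95 and 0.687 CPM. Replicate 2 of each diet was high and the other 4 libraries lay between 0.687 and 1.36 CPM, so the ratio of highest to lowest was 9.26. The 6 listed genes that mark the olfactory bulb itself, a tissue that was removed before the RNA was taken, were looked at beside it. Eomes, a T-box factor of mitral and tufted cells, had counts of 12, 136 and 18 on the NCD, against 0, 37 and 0 on the HFD. Cdhr1, a protocadherin-related gene, had counts of 12, 137 and 48 on the NCD, against 20, 83 and 15 on the HFD. Doc2g had counts of 17, 144 and 15 on the NCD, against 16, 51 and 10 on the HFD. Over the 6 genes the summed level was 5.18, 58.5 and 11.6 CPM on the NCD and 5.61, 27.2 and 3.99 CPM on the HFD, and the same replicate 2 libraries were the highest. Of these genes, S100a5 was listed at 0 in 3 libraries, Eomes in 2, Tbx21 in 3 and Omp in 1. The part of olfactory bulb tissue in the level of Sp8 was not tested.

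**Figure D2:**
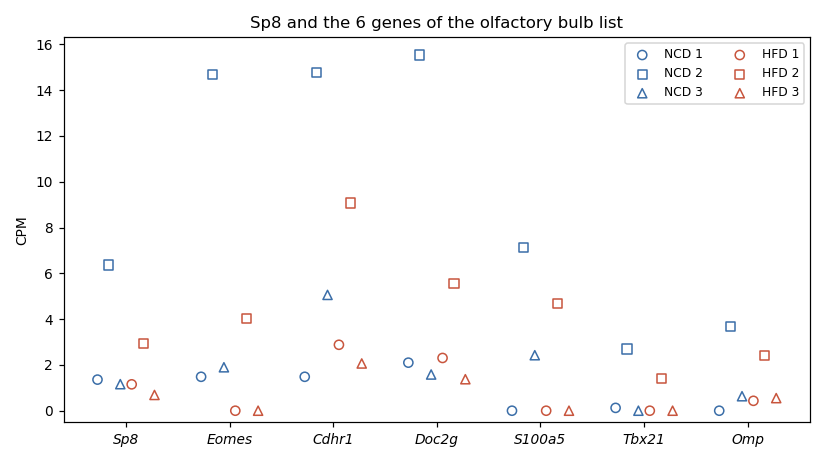
CPM of Sp8 and of the 6 genes of the olfactory bulb list in each of the 6 libraries (NCD blue, HFD red, the marker shape giving the replicate number). NCD replicate 2 is highest for all 7 genes and HFD replicate 2 second, with 6.36 and 2.95 CPM for Sp8.

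The transcription factors chosen for the hypothalamus were at or near the floor. Otp, a homeobox factor of neurosecretory neurons (chromosome 13, 94875602 to 94885130, plus strand), was listed at 0 in all 6 libraries. By counting error alone this allows a level of up to 0.316 to 0.432 CPM in a library. Sim1, a bHLH-PAS factor of the paraventricular nucleus (chromosome 10, 50894754 to 50989152, plus strand), had 3, 5 and 4 counts on the NCD, against 3, 2 and 5 counts on the HFD. Nkx2-1, a homeobox factor of the hypothalamus and of the medial ganglionic eminence (chromosome 12, 56531958 to 56536908, minus strand), had 7, 5 and 8 counts on the NCD, against 4, 13 and 6 counts on the HFD. None of these 3 genes passed the count filter, and no difference between the diets was detectable at this depth. Drd2, a dopamine receptor gene of the striatal list, had 1 count in HFD replicate 2 and 0 in the other libraries. The striatal genes Drd1 and Adora2a had 126 to 171 CPM and 19.4 to 23.3 CPM. A listed 0 may thus not measure the level of a gene, and why Otp was at 0 was not tested. RNA of hypothalamic neurons was nevertheless counted, as seen from their neuropeptides. Pmch, the precursor of melanin-concentrating hormone, had 33.8, 44 and 43.7 CPM on the NCD and 38, 45.5 and 8.25 CPM on the HFD. Oxt, the oxytocin precursor, had 12.8, 33.3 and 25.2 CPM on the NCD and 11.8, 36.1 and 3.3 CPM on the HFD. Both peptides were lowest in HFD replicate 3 and overlapped between the diets.

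To describe each library as tissue, a regional level was taken as the mean, over the tested members of a region, of log2 CPM minus the gene's mean over the 6 libraries. The 6 libraries lay between -0.07 and 0.05 for the upper-layer genes, between -0.13 and 0.17 for the deep-layer genes and between -0.12 and 0.14 for the pallial genes. The other regions varied more, from -0.34 to 0.35 for the hippocampus, from -0.31 to 0.19 for the thalamus and from -0.54 to 0.34 for the basal forebrain. HFD replicate 3 was the lowest library for deep layers (-0.13), hippocampus, thalamus and basal forebrain, close to the lowest for upper layers (-0.06, against -0.07 in NCD replicate 2) and the highest for the pallial genes. NCD replicate 1 was the highest for hippocampus, HFD replicate 2 for thalamus and NCD replicate 2 for basal forebrain. The ranks for thalamus and basal forebrain each depend on 1 scarce gene. Gbx2 lay 0.72 above its mean in HFD replicate 2, and Sp8 lay 1.74 above its mean in NCD replicate 2. They therefore do not show which library held the most of these regions. The lowest rank of HFD replicate 3 for deep layers likewise depends on 1 gene, Otx1, which lay 0.63 below its mean there. The summed CPM of the deep-layer genes was instead lowest in NCD replicate 2, at 823 CPM against 834 CPM in HFD replicate 3. Hippocampus, thalamus and basal forebrain also hold all 6 of the tested members that stayed under 10 CPM in every library. These are Prox1, Dsp, Gbx2, Isl1, Sp8 and Lhx6, and the part of their low counts in the spread was not tested.

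**Figure D3:**
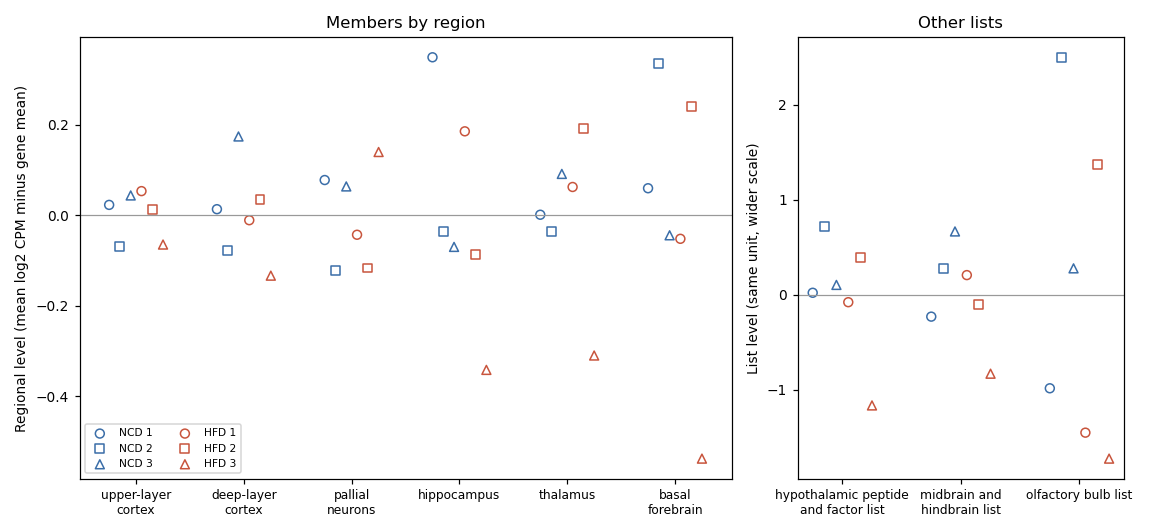
Regional level (mean log2 CPM minus the gene's mean over the 6 libraries) of each library for the members by region (left) and for 3 lists of genes that are not members (right, wider scale). HFD replicate 3 lies at -0.13, -0.34, -0.31 and -0.54 for deep layers, hippocampus, thalamus and basal forebrain, and at -1.16 and -0.83 for the hypothalamic and the midbrain and hindbrain lists, while the upper-layer level stays between -0.07 and 0.05. Its rank as lowest for deep layers depends on Otx1.

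Of the 40 tested members, 18, or 45%, had their lowest value in HFD replicate 3, against 27.1% of all genes tested. By region this held for 7 of 23 members of cortical and pallial groups and for 11 of 17 members of the hippocampus, thalamus and basal forebrain. NCD replicate 2 was the lowest library for 12 members, or 30%, against 12.6% of all genes, and these included Rorb, Rasgrf2, Lamp5, Pou3f1, Bcl11b, Nr4a2, Neurod6 and Bhlhe22. NCD replicate 3 was the highest library for 12 members, or 30%, against 21.4% of all genes. Members share libraries and tissue, so these counts describe 6 libraries and are not independent observations.

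**Figure D4:**
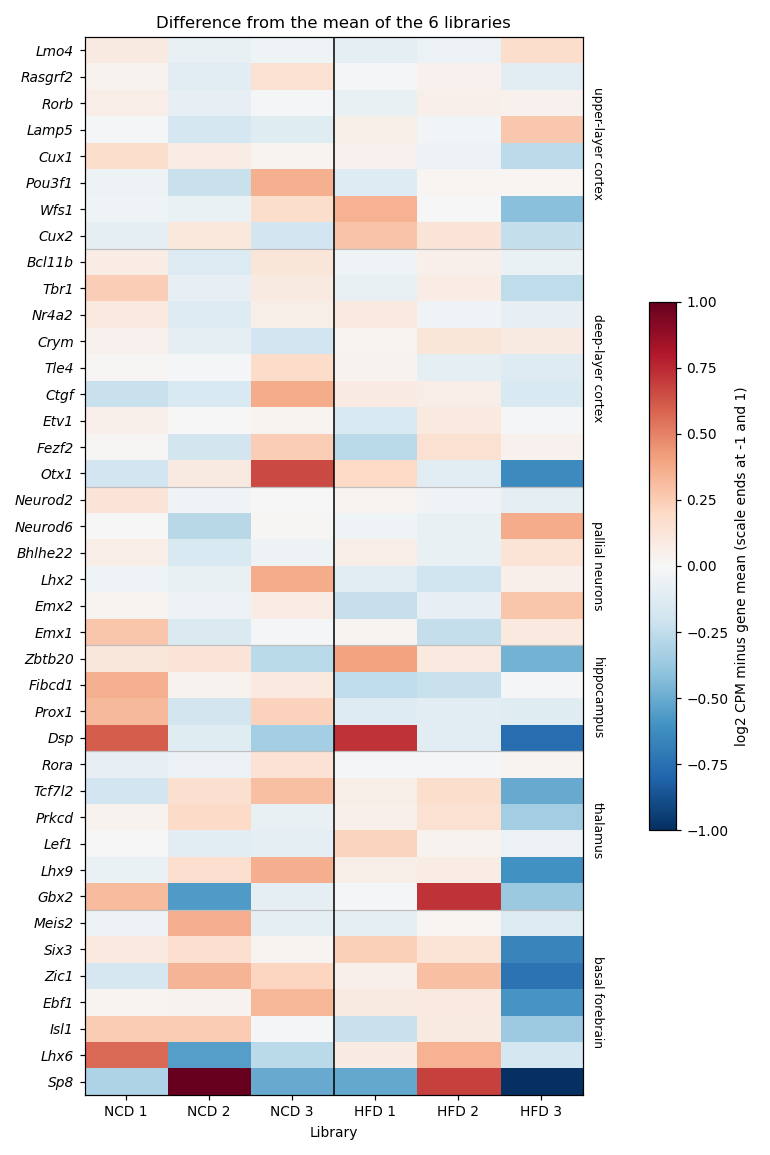
Log2 CPM minus the gene's mean over the 6 libraries for the 40 tested members, ordered by region and by level within it (rows), in the 3 NCD and 3 HFD libraries (columns); colours end at -1 and 1, which only Sp8 exceeds. HFD replicate 3 is low for Otx1, Wfs1, Zbtb20, Dsp, Tcf7l2, Lhx9, Six3, Zic1, Ebf1 and Sp8, and high for Lamp5 and Neurod6.

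Several lists of genes that are not members also differed in HFD replicate 3. The 16 genes listed for hypothalamic peptides and factors, all with a count in at least 1 library, summed to between 72.6 and 118 CPM on the NCD and to 76.3, 116 and 31.3 CPM on the HFD. The 12 genes listed for midbrain and hindbrain summed to 40, 58.4 and 64.5 CPM on the NCD and to 50.7, 45 and 25.2 CPM on the HFD. HFD replicate 3 was lowest for 6 of the 8 hypothalamic genes tested and for 7 of the 11 midbrain and hindbrain genes tested. Pomc, which pituitary cells also make, was the exception among the peptides tested, with 12.2 CPM in HFD replicate 3 and at most 4.64 CPM elsewhere. Of the midbrain genes, Th, the dopamine-synthesis enzyme, had 12.3, 20.4 and 15.3 CPM on the NCD and 8.64, 14 and 3.57 CPM on the HFD. Slc6a3, the dopamine transporter, ranged from 3.3 to 8.35 CPM, and both were lowest in HFD replicate 3. Of the 11 tested, 4 had an unadjusted p under 0.05 by edgeR, all lower on the HFD, against 3.68% of all genes. They were Th (edgeR, unadjusted p = 0.0160, adjusted p = 0.979), Slc6a4, Tph2 and Foxa2. None passed an adjusted p of 0.05, and those other than Th had at most 5.69 CPM in any library. Levels of several cell type lists, taken as for the regions, were also lowest there, at -0.40 for meninges, -0.34 for immature oligodendrocytes, -0.33 for cerebellum, -0.27 for endothelium and -0.12 for mural cells. Microglial genes were highest there, at 0.12, and 6 general neuronal genes summed to between 5088 and 5417 CPM over all libraries. The part of these lists in the members' levels was not tested.

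Between the diets, 0 of the 40 members passed an adjusted p of 0.05 by the quasi-likelihood test of edgeR, as did 0% of the 13771 genes. At an unadjusted p under 0.05 there were also 0 of 40 members, against 3.68% of all genes (1.71% higher and 1.98% lower on the HFD), and DESeq2 and limma after quantile normalization gave 0 members as well. The smallest unadjusted p among the members was that of Fibcd1, 0.0763. Log2 fold changes ran from -0.84 for Sp8 to 0.31 for Gbx2, both genes with few counts. The median size of the change was 0.13 for the members and 0.12 for all genes.

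**Figure D5:**
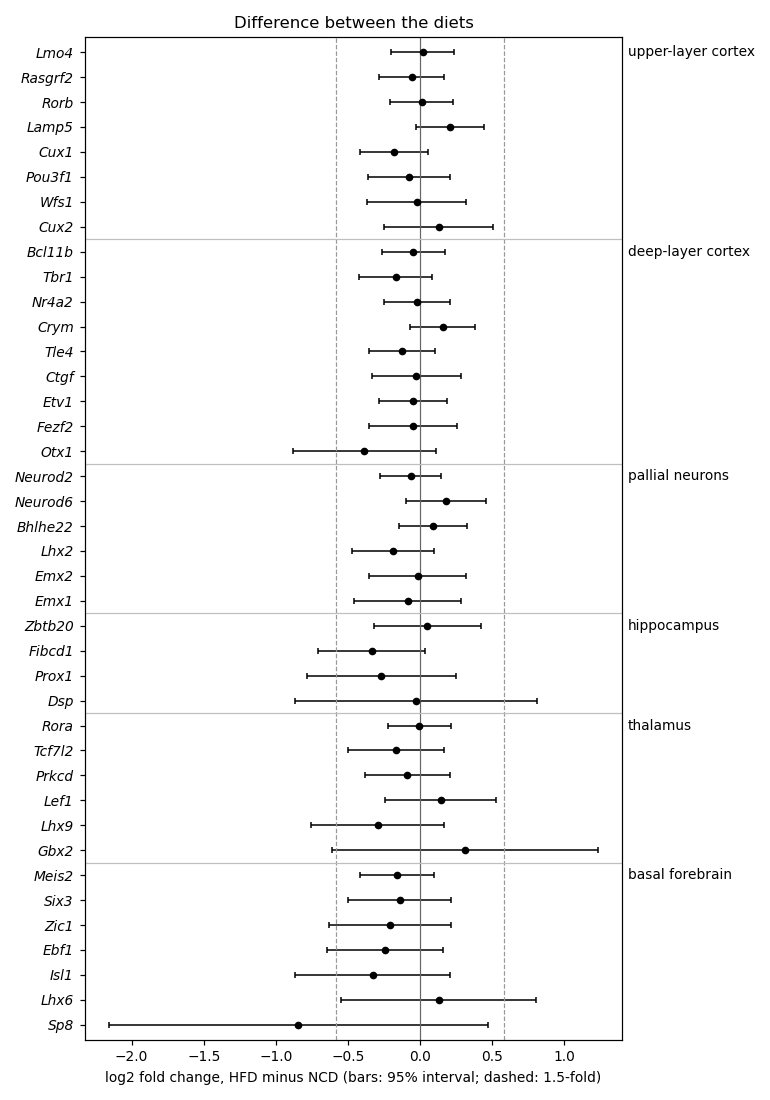
Log2 fold change, HFD minus NCD, of the 40 tested members with its 95% interval from edgeR's quasi-likelihood fit, ordered by region; dashed lines mark a 1.5-fold change either way. All intervals include 0, and those of 29 members lie within the dashed lines.

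A p above the threshold does not show that the levels were equal, and the intervals say how large a difference these libraries leave room for. For 29 of the 40 members the 95% interval lay within a 1.5-fold change in either direction. This held for 22 of 23 cortical and pallial members, the exception being Otx1, and for 7 of the 17 others. The narrowest cases were abundant genes. Neurod2 had a log2 fold change of -0.06 with an interval from -0.27 to 0.15, Rora one of -0.00247 with an interval from -0.22 to 0.21, and Bcl11b one of -0.05 with an interval from -0.26 to 0.17. For Lmo4 it was 0.02 with an interval from -0.20 to 0.24. The widest were Sp8, from -2.16 to 0.47, and Gbx2, from -0.61 to 1.24.

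By region, upper-layer genes had a median log2 fold change of -0.00396, with 4 higher and 4 lower on the HFD, and deep-layer genes one of -0.05, with 1 higher and 8 lower. It was -0.04 for the pallial genes, with 2 higher and 4 lower. For hippocampus it was -0.15, with 1 higher and 3 lower, for thalamus -0.05, with 2 higher and 4 lower, and for basal forebrain -0.21, with 1 higher and 6 lower. Leaving out 1 library moved these medians. Without HFD replicate 3 they were -0.0067 for hippocampus, 0.0309 for thalamus and -0.0471 for basal forebrain. At the other end they were -0.28 for hippocampus without HFD replicate 1, and -0.16 for thalamus and -0.36 for basal forebrain without HFD replicate 2. The hippocampal median was also -0.027 without NCD replicate 1, the thalamic one 0.0105 without NCD replicate 3 and that of the basal forebrain -0.0967 without NCD replicate 2. For deep layers it ran from -0.12 without NCD replicate 2 to 0.00594 without NCD replicate 3, for pallial genes from -0.0952 without HFD replicate 3 to 0.0218 without HFD replicate 2, and for upper layers from -0.044 without NCD replicate 2 to 0.0364 without NCD replicate 3. Over all members the sign was negative for 29 of 40, or 72.5%, against 50.6% of all genes tested, with none of these past the threshold. Leaving out HFD replicate 3 brought the number to 23 of 40, where all genes had 51.2%, and leaving out NCD replicate 3 brought it to 21 of 40, where all genes had 50.3%.

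Leaving out 1 library turned the sign of some variable genes and moved others toward or away from 0. Without HFD replicate 3 the log2 fold change moved from -0.16 to 0.01 for Tcf7l2, from -0.14 to 0.09 for Six3, from -0.21 to 0.04 for Zic1 and from -0.02 to 0.15 for Wfs1. For Lhx9 it moved from -0.29 to -0.10 and for Ebf1 from -0.24 to -0.05. Without NCD replicate 2, Sp8 moved from -0.84 to 0.39 and Meis2 from -0.16 to 0.000661. Otx1, at -0.38 with all libraries, was -0.10 without NCD replicate 3, but -0.58 without HFD replicate 1 (edgeR, unadjusted p = 0.0334, adjusted p = 0.839). Fibcd1 kept its sign when any library was left out, between -0.41 and -0.23, and without HFD replicate 3 edgeR gave an unadjusted p = 0.0422 and an adjusted p = 0.9999.

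Other genes of the same regions were listed beside the members. Of 18 further cortical genes all were tested, with 0 at an unadjusted p under 0.05 and a median log2 fold change of 0.02. The highest were Mef2c, a MADS-box factor of cortical neurons, at 1556 to 1796 CPM, and Slc17a7, the vesicular glutamate transporter of the cortex, at 254 to 305 CPM, and for both the diets overlapped. Of 9 further hippocampal genes 7 were tested, with 0 at that p and a median of 0.06. Of these, 6 were higher and 1 lower on the HFD, whereas 1 hippocampal member was higher and 3, with Fibcd1, were lower. The highest of the further hippocampal genes, Mpped1 and C1ql2, ranged from 166 to 193 CPM and from 22.5 to 34.5 CPM. Of 11 thalamic and habenular genes 10 were tested, with 1 at that p, the calcium channel gene Cacna1g, at -0.50 (edgeR, unadjusted p = 0.0106, adjusted p = 0.979). The highest of these, the glutamate transporter Slc17a6 and the RNA-editing enzyme Adarb1, ranged from 92.9 to 127 CPM and from 79.5 to 105 CPM. Of the 8 hypothalamic genes tested 1 was at that p, the forkhead gene Foxb1, at -1.16 (edgeR, unadjusted p = 0.0205, adjusted p = 0.979), and their median was -0.45. Of 14 striatal and basal forebrain genes 11 were tested, with 0 at that p and a median of 0.06. HFD replicate 3 was lowest for 2 of these 11 genes, whereas it was lowest for 6 of the 7 basal forebrain members, against 27.1% of all genes tested. Meis2, Isl1 and Sp8 were lowest there by a small margin over HFD replicate 1, at 258 against 266 CPM, 32 against 34 counts and 5 against 8 counts. The abundant striatal genes Ppp1r1b and Penk ranged over the 6 libraries from 265 to 316 CPM and from 223 to 281 CPM, without the low value that Six3, Zic1 and Ebf1 had in HFD replicate 3.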

How the data were processed

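QuantSeq 3′ mRNA libraries of forebrain hemispheres were read as single ends of 75 bp. The authors trimmed adaptors, used Bowtie2 for alignment to mm10 and counted unique and multiple alignments per gene with bedtools coverage. They deposited raw read counts, so genes sharing sequence may share reads, and the quantile normalization of the methods is not applied in these counts. The annotation and strand setting are not given in the sources used here. Here, counts were analysed with edgeR 4.0.16 in R 4.3.3. filterByExpr (minimum count 10, minimum total count 15) kept 13771 genes, TMM scaled the libraries, and glmQLFit and glmQLFTest compared HFD with NCD in all 6 libraries without covariates, two-sided, with Benjamini-Hochberg adjustment. Standard errors are the log2 fold change over the square root of F, and 95% intervals use the fit's degrees of freedom. Log2 CPM used a prior count of 2. The members and lists were chosen with earlier results of these data known. Per region, values are given for the 2 members with the highest mean CPM, the most variable tested member, members with separate diets, an unadjusted p under 0.05 or under the filter, and other members by range. Those singled out beyond this (Lamp5, Crym, Lhx9, Prkcd, Zic1, Ebf1) were chosen after their values were seen. Of the other lists, the 2 genes with the highest mean CPM are named, except where a list is given only by its sum or level, and any further gene was picked with its values known. Positions come from GENCODE vM21 (GRCm38). Alternatives used DESeq2 1.42.0, limma 3.58.1, other scalings and filters, a replicate block and leaving out each library. In counts simulated for the HFD and NCD comparison over 13771 genes, with 200 changed by 2-fold, the edgeR test recovered 89.5% with 5 false calls. That share holds for those counts only, and recovery in the 6 libraries themselves was not tested. Python 3.11.15, pandas 2.3.3 and matplotlib 3.10.9 made tables and plots.

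Libraries of a diet differed by more than sampling noise, as chi-square over its degrees of freedom was 3.56 to 16.7, and none was merged.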

Additional observations from a re-analysis of the deposited data

How the results depend on the processing

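Counting error limits the scarce members most, and Otp, at 0 in all libraries, could not be tested. Sim1 and Nkx2-1 entered only the DESeq2 fit and the fit without a filter, with 42 members each. Over DESeq2, quantile normalization with limma, upper-quartile scaling, library size alone, DESeq2 size factors in edgeR, robust estimation, no filter, a minimum of 10 counts in all libraries, removal of genes above 2% of counts, the replicate block and each library left out, the number of members with an adjusted p under 0.05 stayed at 0. Without a filter 23 of all genes had an adjusted p under 0.05 and 1 member, Otx1, an unadjusted p under 0.05. With a library left out the first number ran from 0 to 3, the 3 coming without NCD replicate 3, and the second from 0 to 1. Quantile normalization made 2 members, Fibcd1 and Crym, separate by diet, an alternative chosen after seeing the data. The number of members with a negative sign, for which the alternatives were also chosen after seeing the data, ran from 21 without NCD replicate 3 to 31 by library size alone. The regional medians moved by less than the spread between libraries in all of these fits. For the fits that left out a library this says little, because the left-out library is part of that spread. In those fits the median changed sign for upper layers, deep layers, pallial genes and thalamus, reaching 0.0364, 0.00594, 0.0218 and 0.0309.

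For the 17 tested members named by the rule, 250 of 271 alternative fits kept the sign. Outside the fits that left out a library, the exceptions were Lmo4 by library size alone (-0.00191) and Rora with the replicate block (0.00111). With a library left out, the log2 fold change ran from -0.0658 to 0.0737 for Lmo4, from -0.12 to 0.0091 for Rasgrf2, from -0.22 to 0.15 for Wfs1, from -0.12 to 0.00594 for Bcl11b, from -0.15 to 0.25 for Zbtb20 and from -0.51 to 0.32 for Dsp. It ran from -0.0438 to 0.0728 for Rora, from -0.30 to 0.0145 for Tcf7l2, from -0.12 to 0.57 for Gbx2, from -0.24 to 0.000661 for Meis2, from -0.30 to 0.0900 for Six3 and from -1.69 to 0.39 for Sp8. The cause of these changes was not tested. Over all genes same-numbered libraries did not deviate together (correlations between -0.06 and 0.05 over 3 pairs), and not every library correlated best with its own number, although both replicate 2 libraries were high for Sp8 and the olfactory bulb genes. No source used here says that a number marks a shared batch or day, so the numbers were not taken to pair the libraries. The replicate block left 0 members at an unadjusted p under 0.05 and brought the genes at that p from 507 to 371. Of 144 regional levels under 4 other scalings, 143 moved by less than the spread between libraries.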
